A study of Mus musculus with 8 samples.

Results

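The depot difference of adipocyte precursors (APs) under standard diet (SD) was described from 4 of the 8 arrays of the series. The members were chosen by their titles: 2 arrays of visceral APs (viAPs, replicates 3 and 4) and 2 arrays of subcutaneous APs (scAPs, replicates 1 and 2). The study asked how APs of the 2 depots respond to a few days of high-fat diet (HFD), and the SD arrays are its baseline. All groups were male C57BL/6J mice of 7 to 8 weeks, held for 3 days on SD or on HFD, and the labels name no further allele or agent. The viAPs came from perigonadal white fat and the scAPs from inguinal white fat. Both were depleted of CD45+ blood cells and CD31+ endothelial cells and then selected on magnetic beads for SCA-1. RNA of each array was pooled from 3 mice, so the spread between arrays is that between pools. The 4 HFD arrays, 2 of each depot, served as a reference and as part of the spread estimate.

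Fat depots arise from different embryonic territories, and their precursors keep positional transcription factors of those territories in the adult. Tbx15 (a T-box factor), Hoxc10 (a posterior homeobox factor) and Tbx5 are known from inguinal precursors. Tcf21 (a basic helix-loop-helix factor) and Wt1 (a zinc finger factor of the coelomic lining and its derivatives) are known from visceral ones. Secreted, matrix and immune genes are also known to differ between the depots.

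The 2 arrays labelled SD viAP did not share these depot markers. Levels are log2 of the deposited intensity and are given in the order scAP replicate 1, scAP replicate 2, viAP replicate 3, viAP replicate 4. Tbx15 stood at 9.67, 9.34, 4.70 and 9.77. Hoxc10 stood at 7.85, 7.65, 5.55 and 7.73, and Tbx5 at 7.31, 7.22, 4.81 and 6.95. For all 3 inguinal factors, viAP replicate 3 was far below the other 3 arrays, which lay close together. Tcf21 was at 5.04, 5.52, 9.61 and 5.32. Wt1 was at 6.00, 6.51, 8.71 and 5.98. Both visceral factors were high on viAP replicate 3 alone, and the Tcf21 level on the array labelled SD viAP replicate 4 lay between those of the 2 scAP arrays. On a bulk array, fewer cells of a type and less RNA per cell cannot be told apart. The markers went against the label of replicate 4, so it is called the array labelled SD viAP replicate 4, it keeps the group of its label, and results are given with and without it.

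Precursor markers were high on all 4 arrays. Pdgfra, the receptor that marks fat precursors, was at 11.45, 11.33, 11.01 and 11.27. Cd34 was at 12.37, 11.84, 11.38 and 11.71, and Itgb1 at 10.52, 10.24, 9.96 and 9.78. None of these 3 genes passed the test between the depots with or without replicate 4. Of the whole list of 14 measured precursor markers, 11 were below both scAP arrays on viAP replicate 3, beside 28.6% of all probe sets, with a median difference of -0.48. Thy1 and Col1a1 were called lower without replicate 4, with differences of -1.25 and -1.02, and none was called higher. The summed linear intensity of the list was 47190 and 43552 on the scAP arrays and 33768 and 46176 on the viAP arrays. Ly6a, the gene of SCA-1, had no probe set with exactly 1 gene symbol.

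Over the 21789 probe sets with exactly 1 gene symbol, 56 differed at least 2-fold between scAP replicate 2 and the array labelled SD viAP replicate 4. Between the 2 scAP arrays this count was 106, and between the 2 arrays labelled SD viAP it was 380. Pearson correlations across these probe sets, which are not independent replicates, were 0.988, 0.985 and 0.980 for the same 3 pairs. By both measures the array labelled SD viAP replicate 4 lay closer to scAP replicate 2 than the 2 scAP arrays lay to each other. Against scAP replicate 1 it lay further off than scAP replicate 2 did, with 287 probe sets at least 2-fold apart and a correlation of 0.981.

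**Figure D1:**
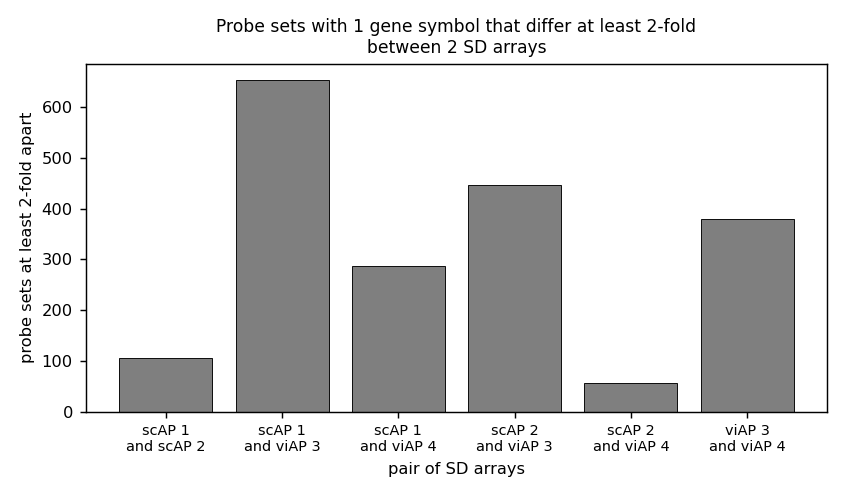
Number of the 21789 probe sets with 1 gene symbol that differed at least 2-fold between each pair of SD arrays (bars, counts from 0). The pair of scAP replicate 2 and viAP replicate 4 has the lowest count, 56, and the pair of scAP replicate 1 and viAP replicate 3 the highest, 653.

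With both viAP arrays, the limma fit over the 8 arrays called 0 probe sets between SD viAP and SD scAP at a Benjamini-Hochberg adjusted p below 0.05 and a change of at least 2-fold (0% of those tested). The lowest adjusted p was 0.232. An unadjusted p below 0.05 was reached by 2536 probe sets, 1088 higher and 1448 lower in viAP. For Tbx15 the viAP minus scAP difference was -2.26 ± 1.23 on the log2 scale (SE, n = 2 against 2, limma adjusted p = 0.515). For Tcf21 it was 2.18 ± 1.05 (limma adjusted p = 0.468). For Tbx15 the array labelled SD viAP replicate 4 was 5.07 above viAP replicate 3, and for Tcf21 the difference between them was -4.29, both larger than the depot difference.

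Without the array labelled SD viAP replicate 4, the same fit called 105 probe sets of 93 genes higher in viAP (0.482% of those tested) and 89 probe sets of 87 genes lower (0.408%). Here viAP is replicate 3 alone, and the fit assumes that it varies like the arrays of the other 3 groups. When the spread came from the SD arrays alone, 0 probe sets passed, and leaving out any 1 of the other arrays left at most 2. The sizes given next are those of 1 pool of viAPs against 2 pools of scAPs.

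The genes furthest above scAP on viAP replicate 3 included several secreted proteins. Hp, the haptoglobin that binds free haemoglobin, was at 5.83, 6.34, 10.88 and 5.86. Its difference without replicate 4 was 4.80 ± 0.22 (SE, limma adjusted p = 0.00258). Lcn2, a lipocalin that binds bacterial siderophores, was at 5.95, 5.95, 10.26 and 5.67, a difference of 4.30 ± 0.14 (limma adjusted p = 0.00133). Trf, the iron carrier transferrin, was at 9.11, 9.10, 12.06 and 9.01. Cp, the ferroxidase ceruloplasmin, was at 9.06, 9.59, 11.15 and 9.51 and was named after its values were seen. In these 4 genes the array labelled SD viAP replicate 4 lay within or next to the scAP levels. Hpca, a neuronal calcium sensor, Lrrn1, a leucine-rich repeat membrane protein, and Enpp6, a choline phosphodiesterase, had differences of 2.80, 2.70 and 2.62. Tcf21, Wt1, Col6a5 and Aldh1a2, given with their groups, completed the highest 10.

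Of the genes furthest below scAP on viAP replicate 3, Akr1c18, a hydroxysteroid dehydrogenase that inactivates progesterone, was at 11.13, 10.20, 5.39 and 9.73. Its difference without replicate 4 was -5.27 ± 0.59 (SE, limma adjusted p = 0.0252). Il1r2, the decoy receptor of interleukin 1, was at 11.32, 10.63, 5.78 and 10.20, a difference of -5.19 ± 0.38 (limma adjusted p = 0.00859). Igfbp5, which binds insulin-like growth factors, was at 11.86, 11.61, 8.00 and 11.38. Mmp3, the protease stromelysin 1, was at 11.60, 11.16, 7.44 and 11.00, and the chemokine gene Ccl8 at 8.68, 8.38, 4.64 and 7.91. In these 5 genes viAP replicate 3 was far below both scAP arrays. The array labelled SD viAP replicate 4 was also below both, by a gap of -0.16 for Mmp3 to -0.47 for Akr1c18 and Ccl8. Adh7, an alcohol and retinol dehydrogenase, the cadherin Cdh9, the matrix protein gene Thbs2 and Mmp27 had differences of -2.94, -2.90, -2.89 and -2.82, and with Tbx15 these were the lowest 10. In 16 of these 20 genes the dimmer side was under a log2 level of 7, and in 11 it was under the array medians of the probe sets used (6.00 to 6.07). No detection call was used, so sizes and ranks there are approximate. With 16 added before log2, the difference became 3.99 for Lcn2, 3.85 for Tcf21, -4.14 for Tbx15, -4.82 for Akr1c18 and -3.23 for Ccl8, and Adh7 and Cdh9 were no longer called (limma adjusted p = 0.0542 and 0.0823).

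Promoters are shown for 2 genes from each end of this ranking, not in strict order of rank, as a reference. They are the 250 bases before the annotated start in RefSeq (GRCm38.p6), on the strand of the gene, where a single window was listed. Capitals mark the TATA box motif TATAAA, the CAAT box motif CCAAT and the GC box motif GGGCGG, each searched on both strands. The windows are chr10:22820144-22820393 (minus strand, Tcf21), chr2:32387740-32387989 (minus strand, Lcn2), chr9:7445572-7445821 (plus strand, Mmp3) and chr11:82114935-82115184 (plus strand, Ccl8).
Tcf21: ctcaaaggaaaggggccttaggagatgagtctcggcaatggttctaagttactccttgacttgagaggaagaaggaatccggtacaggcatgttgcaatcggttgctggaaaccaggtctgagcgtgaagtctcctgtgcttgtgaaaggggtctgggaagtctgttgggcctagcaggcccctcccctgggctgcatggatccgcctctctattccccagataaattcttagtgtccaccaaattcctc
Lcn2: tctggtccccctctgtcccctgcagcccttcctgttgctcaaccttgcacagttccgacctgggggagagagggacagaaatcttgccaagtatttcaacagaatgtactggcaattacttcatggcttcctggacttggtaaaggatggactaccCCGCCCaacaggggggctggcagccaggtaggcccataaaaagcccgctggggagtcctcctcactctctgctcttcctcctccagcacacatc
Mmp3: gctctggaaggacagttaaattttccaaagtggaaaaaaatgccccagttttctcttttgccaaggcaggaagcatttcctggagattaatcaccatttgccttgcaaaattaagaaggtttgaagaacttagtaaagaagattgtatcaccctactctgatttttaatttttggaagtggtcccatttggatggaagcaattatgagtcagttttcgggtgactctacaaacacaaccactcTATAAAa
Ccl8: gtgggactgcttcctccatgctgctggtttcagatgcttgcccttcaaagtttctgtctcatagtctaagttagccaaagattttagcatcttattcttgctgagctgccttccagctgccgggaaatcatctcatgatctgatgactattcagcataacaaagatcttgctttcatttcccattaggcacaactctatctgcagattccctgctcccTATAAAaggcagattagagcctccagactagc
Of the 20 genes, 15 had a single window. TATAAA was in 0 of 6 windows of the genes that were higher and in 4 of 9 of those that were lower, against 12.4% of all 32851 windows. Of the 4, Mmp3 and Ccl8 had it on the strand of the gene, 7 and 32 bases before the start. Adh7 and Thbs2 had it on the other strand, 202 and 126 bases before the start. Akr1c18 and Il1r2, which were furthest below scAP and are not shown, had no match. CCAAT was in 2 of 6 and 4 of 9, against 33.8%, and GGGCGG in 3 of 6 and 1 of 9, against 32.7%. No match of 1 motif overlapped a match of another in the 15 windows. These are matches of letters in a window and not measured binding sites.

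Probe sets that separated the depots on HFD, chosen without any SD array, were then read on the SD arrays. They include Tbx15, Tbx5, Tcf21 and Wt1, markers on which replicate 4 was already set apart. The reading is therefore not fully separate from those markers. Some of the HFD-chosen probe sets did not separate the depots on SD. Col8a1 and the mitosis genes Top2a and Ccnb2 lay within or next to the scAP levels on viAP replicate 3. On the 4 HFD arrays alone, limma called 97 probe sets higher (0.445%) and 48 lower (0.22%) in viAP than in scAP, 145 probe sets of 131 genes. On a scale that puts HFD scAP at 0 and HFD viAP at 1, the median position of these probe sets was 0.0593 for SD scAP replicate 1, 0.0979 for SD scAP replicate 2 and 0.838 for SD viAP replicate 3. For the array labelled SD viAP replicate 4 it was 0.133. Of the 145 probe sets, 119 were nearer to HFD viAP than to HFD scAP on viAP replicate 3, against 12 on the array labelled SD viAP replicate 4 and 15 and 12 on the 2 scAP arrays.

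On viAP replicate 3, 79 of the 145 lay at least 2-fold beyond both SD scAP arrays in the direction seen on HFD, 55 above and 24 below, and 0 lay that far in the other direction. Over all probe sets, 0.739% lay that far above and 0.688% that far below on this array. On the array labelled SD viAP replicate 4, 0 of the 145 lay that far in either direction, where 0.0734% of all probe sets were that far above and 0.0367% below. The median difference from the SD scAP mean, signed by the direction on HFD, was 1.22 on viAP replicate 3 and 0.06 on the array labelled SD viAP replicate 4, on the log2 scale, beside a median size of 1.59 on HFD. The SD arrays played no part in the choice of these probe sets.

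**Figure D2:**
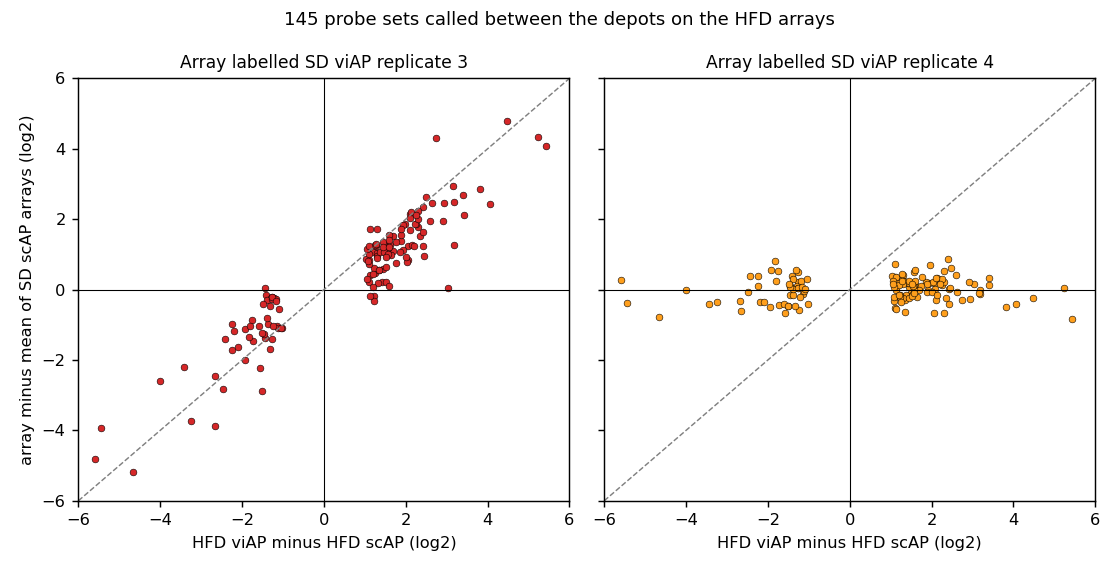
Each point is 1 of the 145 probe sets called between the depots on the HFD arrays. The x axis is the log2 difference HFD viAP minus HFD scAP, the y axis the log2 difference of 1 SD viAP array from the mean of the 2 SD scAP arrays, and the dashed line marks equal differences. For replicate 3 (left) the median signed difference is 1.22 and the median ratio to the HFD difference 0.75, with some points near 0. The points of replicate 4 (right) lie along 0, with a median signed difference of 0.06.

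Of the 10 genes highest and the 10 lowest in viAP on HFD, 18 were also called on SD without replicate 4, all in the same direction. The exceptions were Col8a1, described further on, and Abcc9, a subunit of potassium channels, at 8.41, 8.75, 7.17 and 8.97 (limma adjusted p = 0.0511 without replicate 4). Col6a5, a chain of collagen VI, was at 6.64, 5.93, 10.38 and 5.46. Mme, the surface peptidase neprilysin, was at 8.80, 8.97, 6.29 and 8.87, and Cd36, a fatty acid transporter, at 9.33, 9.68, 7.29 and 9.10. Each of these had viAP replicate 3 alone at the level of its depot.

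**Figure D3:**
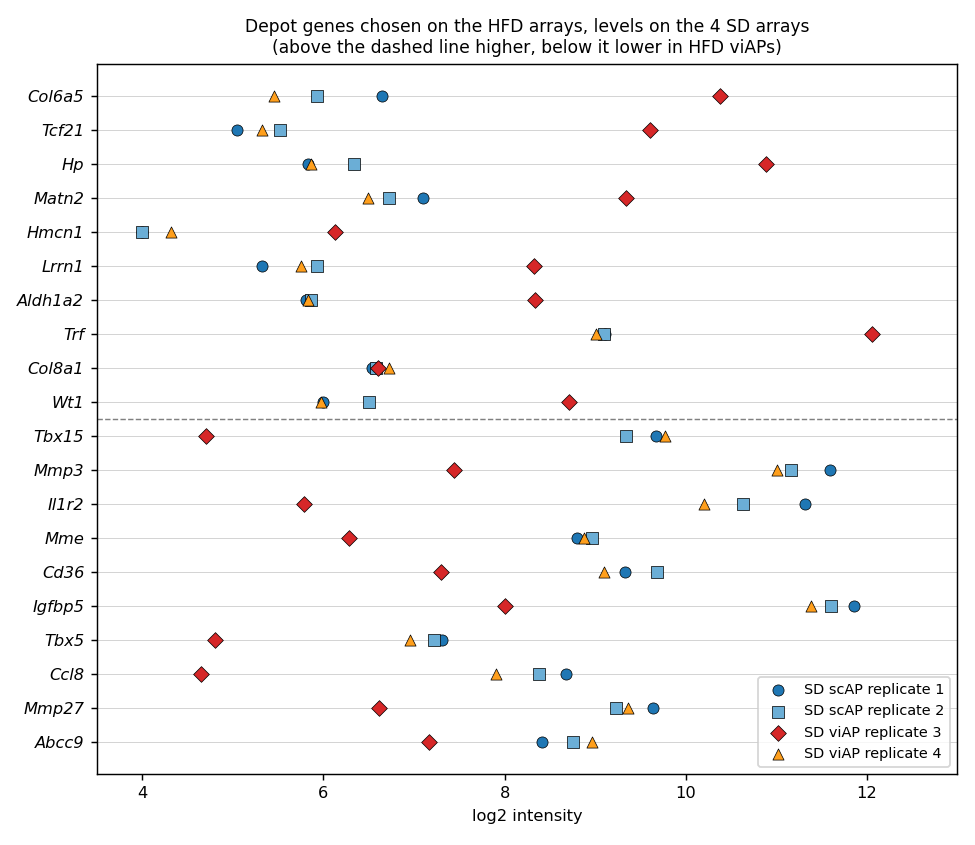
Levels (log2 intensity) on the 4 SD arrays of the 10 genes highest and the 10 lowest in HFD viAPs, 1 point per array. For Tbx15, viAP replicate 3 is at 4.70 and the other 3 arrays at 9.34 to 9.77, and for Tcf21 it is at 9.61 and the others at 5.04 to 5.52. The 4 arrays coincide only for Col8a1.

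The calls made without replicate 4 picked probe sets on which viAP replicate 3 lay far from scAP. An array outside that choice lies nearer to scAP partly for that reason, so these counts do not test the label. The calls were then read on the array labelled SD viAP replicate 4. It lay nearer to the scAP mean than to viAP replicate 3 in 98 of the 105 probe sets called higher and in 79 of the 89 called lower. Its median place on the way from the scAP mean to replicate 3 was 0.118 and 0.164 of the distance. On the HFD arrays the depot difference had the same sign for 103 of the 105 and 86 of the 89, and it was itself called the same way for 51 and 23. Over all probe sets, 0.445% were called higher and 0.22% lower on HFD. The fits share the HFD arrays through the spread estimate, and a small spread there favours a call in both. The shared calls are therefore not independent.

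Among the gene lists, the inguinal depot list had 7 of 25 measured members called lower without replicate 4 and none higher, with a median difference of -0.53 against 0.01 for all probe sets. The share called over all probe sets was 0.482% higher and 0.408% lower, and every list count without replicate 4 is to be read beside these. The visceral list had 4 of 20 called higher and none lower (Tcf21, Aldh1a2, Wt1 and Rspo1), with a median of 0.31. Of 37 Hox genes, Hoxa5 rose with a difference of 1.73, and Hoxc10 and Hoxc9 fell by 2.19 and 1.01. Hoxa5 was at 5.67, 5.36, 7.25 and 5.46, and Hoxc9 at 8.07, 8.07, 7.06 and 7.91. Hoxa5 was thus high and Hoxc10 and Hoxc9 low on viAP replicate 3, and for all 3 genes replicate 4 resembled scAP. On viAP replicate 3, 22 of the 37 Hox genes lay above both scAP arrays and 6 below. Over all probe sets these shares were 32.0% and 28.6%. The depot lists hold Tbx15, Tcf21 and Wt1, markers on which replicate 4 was set apart. Their counts without that array are therefore no separate support.

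Of the signalling lists, few members were called. Aldh1a2, which makes retinoic acid, was at 5.81, 5.86, 8.33 and 5.83, and Rdh10, which makes its retinal substrate, at 7.86, 7.71, 9.05 and 7.44. These were the 2 of the 21 measured genes of the retinoid list called without replicate 4, both higher in viAP. Outside that list, Adh7, given above, and Retsat, the retinol saturase, were lower on viAP replicate 3, with differences of -2.94 and -1.28. Retsat was named after its values were seen. Of 35 Wnt genes, the enhancers Rspo1 and Rspo3 and the secreted inhibitor Sfrp1 were higher and the related Sfrp2 was lower. Sfrp1 was at 8.77, 9.02, 11.13 and 9.44, and Sfrp2 at 12.23, 11.87, 10.05 and 11.53. The 2 related genes were thus ordered oppositely on viAP replicate 3. Of 42 genes of the BMP and TGF-beta pathways, Ltbp4, which holds latent TGF-beta in the matrix, and Inhbb, an activin subunit, were higher by 1.79 and 1.63, and none was lower.

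Matrix genes changed in both directions. Of 36 collagen chains, Col6a5 was higher, while Col1a1, Col1a2 and Col5a2 were lower, with differences of -1.02, -1.08 and -1.08. Col1a1 was at 12.94, 13.07, 11.98 and 13.20. Of 54 matrix glycoprotein and proteoglycan genes, 3 were higher and 5 lower, and the paralogs Thbs1 and Thbs2 differed in direction. Thbs1 was at 9.13, 9.65, 11.54 and 9.45, and Thbs2 at 11.19, 11.00, 8.20 and 10.63. Hmcn1, a hemicentin of the matrix with 77 probe sets on the array, had 12 of them called higher by 1.19 to 2.13. Of 33 protease and inhibitor genes, Mmp3, Mmp27 and Mmp2 were lower and none was higher. Mmp2, the type IV collagenase, was at 12.59, 12.48, 11.19 and 12.28.

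Of 25 interferon-stimulated and antigen presentation genes, 5 were called lower without replicate 4 and none higher, beside 0.408% and 0.482% of all probe sets, with a median difference of -0.91. Ifitm1, an interferon-inducible membrane protein outside the list and named after its values were seen, was called higher by 1.31 in 1 of its 2 probe sets. Usp18, which dampens the interferon receptor, was at 8.50, 8.45, 6.63 and 8.06. B2m, the light chain of class I molecules, was at 13.01, 12.89, 11.44 and 12.64, and Ifit1, a sensor of foreign RNA, at 9.0, 9.67, 7.52 and 9.24. The summed linear intensity of the list was 16527 and 16393 on the scAP arrays, 6516 on viAP replicate 3 and 13865 on the array labelled SD viAP replicate 4. B2m, the brightest of the members given here, makes up a large part of these sums and of those on HFD. On viAP replicate 3, 20 of the 25 were below both scAP arrays, beside 28.6% of all probe sets, and on both viAP arrays 12 were, beside 15.9%. On HFD the list summed to 9641 and 9308 on the viAP arrays and to 14931 and 14201 on the scAP arrays. The HFD difference was -1.52 for Usp18, 0.02 for Ifit1 and -0.60 for B2m, and none of them was called there. The chemokine gene Cxcl10, an interferon target, was at 10.73, 10.93, 8.70 and 10.51 with a difference of -2.13 (limma adjusted p = 0.0113).

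The receptor family of interleukin 1 was looked at after the values of some members were seen. Of its 10 genes, 8 had a probe set with 1 gene symbol. On viAP replicate 3, 4 of these were at least 2-fold below both scAP arrays and none that far above. Over all probe sets, 0.688% lay that far below and 0.739% that far above. The family was chosen because of members already seen on this array, so the count partly restates that choice. The 4 were Il1r2, Il1rl2 (the receptor of interleukin 36), Il18r1 (the receptor of interleukin 18) and Il1rap (the shared accessory chain). Il1rl2 was at 11.04, 10.40, 8.51 and 10.06, Il18r1 at 6.77, 6.59, 4.64 and 6.41, and Il1rap at 8.01, 7.74, 6.30 and 7.55. The other 4, Il18rap, Il1rapl1, Il1rapl2 and Sigirr, stood between 3.00 and 6.23 and had differences of -0.09 to 0.16.

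**Figure D4:**
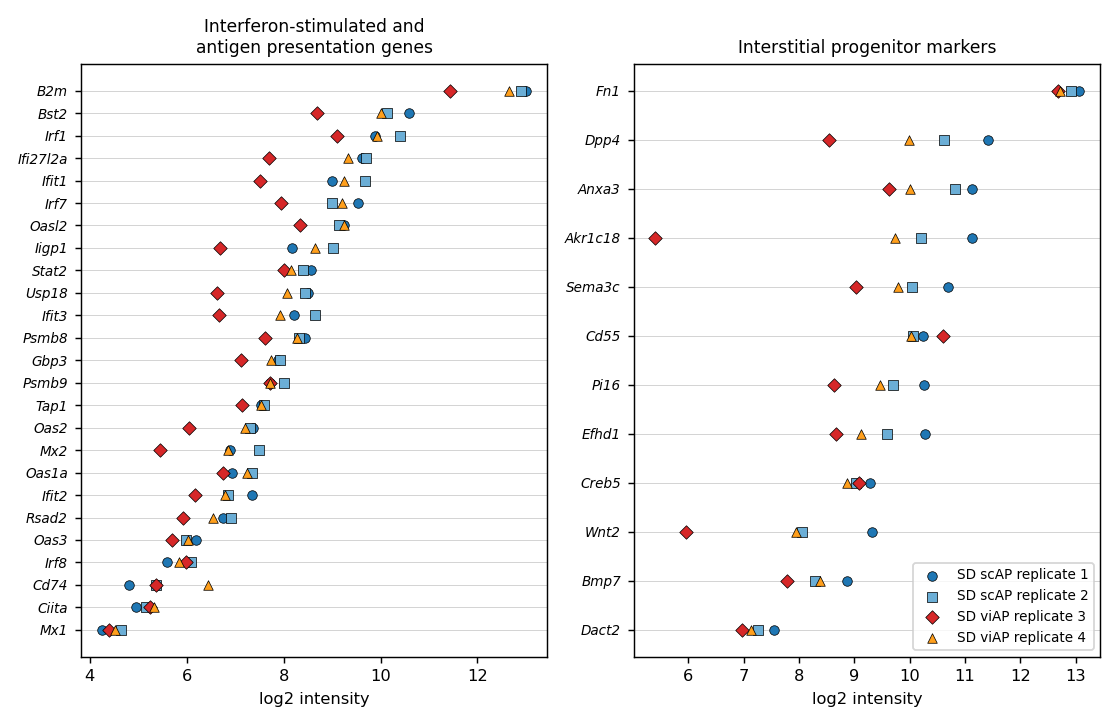
Levels (log2 intensity) on the 4 SD arrays of the 25 interferon-stimulated and antigen presentation genes (left) and the 12 interstitial progenitor markers (right), 1 point per array, ordered by the scAP mean. The viAP replicate 3 points lie below both scAP points for 20 of 25 and 10 of 12 genes, and the viAP replicate 4 points for 12 of 25 and 11 of 12.

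The interstitial progenitor markers had, of the 33 lists, the largest share of members on the same side of both scAP arrays on both viAP arrays. These genes mark the least committed precursors, found in the sheet of connective tissue around the lobules. Dpp4, their surface peptidase marker, was at 11.41, 10.62, 8.55 and 9.98. Pi16 was at 10.27, 9.70, 8.64 and 9.46. Wnt2 was at 9.31, 8.06, 5.95 and 7.94, and Efhd1 at 10.27, 9.59, 8.67 and 9.12. Of the 12 measured markers, 9 were below both scAP arrays on both viAP arrays, beside 15.9% of all probe sets. The median difference from the scAP mean was -1.29 on viAP replicate 3 and -0.55 on the array labelled SD viAP replicate 4. The summed linear intensity of the list was 22972 and 17240 on the scAP arrays and 11556 and 14010 on the viAP arrays. On HFD it was 17552 and 17778 in viAP and 17425 and 24057 in scAP, so the sums of the depots overlapped there. Only Akr1c18 of the 12 was called, and it was called without replicate 4. For Dpp4 the adjusted p without replicate 4 was 0.0746 in limma. Of 14 committed preadipocyte markers, 1 was below both scAP arrays on both viAP arrays and 3 were above, and Cd36 was called lower without replicate 4.

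Few genes separated both viAP arrays from both scAP arrays. By at least 2-fold, 2 probe sets were above (0.00918%) and 4 below (0.0184%), and with any gap 3675 were above (16.9%) and 3457 below (15.9%). The 2 above were Trim12a and Trim30d, members of a cluster of TRIM genes of the innate response. Trim12a was at 4.32, 4.58, 6.02 and 7.55, and Trim30d at 3.46, 3.58, 4.91 and 5.46. Both were higher on the array labelled SD viAP replicate 4 than on viAP replicate 3. The separation did not recur on HFD, where Trim12a was at 6.04 and 6.21 in viAP and 6.46 and 6.71 in scAP, and Trim30d at 6.15 and 5.86 in viAP and 5.98 and 6.44 in scAP. The neighbouring Trim12c was below, at 6.51, 5.88, 4.58 and 4.64, together with Snord16a, Mir376b and Samt2b. TRIM genes of this cluster are near-identical copies, so their probe sets may share signal. Apart from Trim12a, these genes fall outside the rule for named genes and were named because they complete the count.

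Smaller shared differences went in both directions. Those higher in viAP included developmental and stromal genes, again named after their values were seen. Osr1, a zinc finger factor of mesoderm, was at 11.16, 10.94, 11.84 and 11.88. Nfib, a nuclear factor I family member, was at 10.08, 9.99, 10.95 and 10.99, and Aoc3, a surface amine oxidase, at 8.95, 9.24, 10.10 and 10.07. In these 3 genes the 2 viAP arrays nearly coincided and lay above both scAP arrays, and none passed the test with 8 arrays. On HFD, Nfib was at 11.28 and 11.16 in viAP and at 11.03 and 10.76 in scAP. The lowest unadjusted p with 8 arrays was that of Ltn1, a ubiquitin ligase of stalled ribosomes, in 1 of its 16 probe sets, at 7.64, 7.70, 6.54 and 6.70 (limma adjusted p = 0.232). Over the 16 the difference ranged from -1.05 to 0.38, with a median of -0.41.

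The array labelled SD viAP replicate 4 lay at least 2-fold above both scAP arrays in 16 probe sets of 5 genes and at least 2-fold below in 8 probe sets of 8 genes. Of these, 2 of the genes above and 4 of those below were as far outside on viAP replicate 3 too. Of the 16, 12 were probe sets of Srsy, a multicopy gene of the Y chromosome in which a paralog may share signal. The others were Trim12a, Trim30d, Cd74, the invariant chain of class II molecules, and Snai2, a zinc finger factor of mesenchymal cells. Cd74 was at 4.81, 5.36, 5.36 and 6.44, and Snai2 at 7.38, 7.21, 7.38 and 8.56.

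Markers of other cell types were read on the same 4 arrays. Of 19 mesothelial markers, 3 were called higher (Wt1, Upk3b and Rspo1) and 1 lower (Igfbp5) without replicate 4. Upk3b, a mesothelial uroplakin, was at 5.91, 5.75, 7.77 and 6.13. Msln, Lrrn4 and Krt19, the other defining markers, stood between 5.04 and 6.15 on the 4 arrays and were not called. On viAP replicate 3, 13 of the 19 lay above both scAP arrays and 3 below, beside 32.0% and 28.6% of all probe sets. The median difference without replicate 4 was 0.31. The summed linear intensity of the list was 4653 and 4125 on the scAP arrays and 2277 and 3711 on the viAP arrays. Igfbp5, its brightest member, at 11.86, 11.61, 8.00 and 11.38, made up most of the scAP sums. The fall of the sum on viAP replicate 3 is therefore that of 1 gene and not of the list. Of 25 genes of epididymis and testis, Star, which feeds cholesterol into steroid synthesis, was called higher, and the list summed to 645 and 725 on the scAP arrays and 1012 and 748 on the viAP arrays. Prm2, a protamine of sperm, was at 5.95, 5.88, 7.09 and 6.27. The part of mesothelial or epididymal cells in the visceral gene levels was not tested.

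Of the other lists, mural cells had 1 of 15 called higher (Des, at 5.46, 5.32, 7.84 and 5.32), and adipocyte markers had 2 of 16 called lower (Adipoq and Plin4). Adipoq, the gene of adiponectin, was at 5.98, 5.86, 4.64 and 5.88. The lists of endothelium (22 measured), macrophages (21), lymphocytes (14), muscle and skin (22), lymph node stroma (14), nerve (10) and red blood cells (3) had 0 called in either direction without replicate 4. Their summed intensities ranged from 127 for red blood cells to 8073 for lymph node stroma on the scAP arrays. Of 26 complement genes, C4b and C2 were called lower, with differences of -2.32 and -1.50, and of 29 chemokine and cytokine genes Ccl9 was called higher and Ccl8 and Cxcl10 lower. The lists of adipogenic transcription factors (26), prostaglandin genes (19), heat shock genes (16) and mitosis genes (25) had 0 called. Of 19 basement membrane genes Frem1 was called lower. Of 18 genes of haem breakdown and NRF2 targets Gsta3 was called higher, and of 20 immediate early genes, which tissue digestion is known to raise, Nr4a2 was. With all 8 arrays, no list had a member called.

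The depot difference on SD was set against that on HFD in the same fit. With 8 arrays, 1 probe set was called (0.00459%), that of Col8a1, a chain of collagen VIII. It was at 6.54, 6.59, 6.60 and 6.73 on the SD arrays, at 9.26 and 9.16 on the HFD viAP arrays and at 6.09 and 6.27 on the HFD scAP arrays. The SD difference was 0.10 and the HFD difference 3.03, and the difference between them was -2.93 (limma adjusted p = 0.00242). With replicate 4 left out it was -3.00 (limma adjusted p = 0.0561), and 0 probe sets were called (0%). All 4 SD arrays had nearly the same level. Mitosis genes were not called in this comparison. Top2a, the topoisomerase of dividing cells, was at 6.09, 5.58, 5.93 and 5.73 on the SD arrays and at 8.10 and 7.89 on the HFD viAP arrays. The summed intensity of the 25 mitosis genes was 1291, 1074, 1376 and 1206 on the SD arrays, against 3741 and 3173 in HFD viAP and 1598 and 1391 in HFD scAP.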

How the data were processed

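Total RNA of sorted APs was hybridised to 8 Affymetrix Mouse Gene 1.0 ST arrays. Per the labels, the authors made the deposited values by RMA (background correction, quantile normalization, probe set summary), with Affymetrix Expression Console 1.1 named in the submitters' notes. The deposited intensity values are on a linear scale in whole numbers, and how they were returned from log2 was not given in the sources used here. Rounding makes low levels coarse.

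log2 was taken without an offset. Of 35556 probe sets, 21789 had 1 gene symbol in the platform annotation (19938 genes), 1621 had several and 12146 none, and the first were kept. limma 3.58.1 in R 4.3.3 (lmFit, eBayes) was fitted with 1 mean per group over 8 arrays, with Benjamini-Hochberg adjustment over all 21789. A call needed an adjusted p below 0.05 and a log2 change of at least 1. The fit was repeated without SD viAP replicate 4. The script was tested on simulated data. Figures were drawn with matplotlib. The number of arrays limits the precision, and an exact permutation of 2 against 2 arrays cannot go below a two-sided p of 0.333. Nothing states that replicates were separate experiments beyond separate pools, so p-values measure the spread between arrays.

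Members, gene lists and tests were chosen with earlier results of these data known. Named genes were the 4 depot markers with Sfrp2, Ccl8 and Mmp3, the 10 highest and 10 lowest on the HFD arrays alone, the 10 highest and 10 lowest on SD without replicate 4, genes with both viAP arrays at least 2-fold outside the scAP range at a log2 level above 7, and called members of each list, up to 4, with the defining markers of other cell types. Small RNAs, Gm genes and Rik clones were left out. Alternatives were other sample sets, filters on low levels, an offset of 16, median centring, quantile normalization, no moderation, a trended prior and leaving out each array. Promoter windows came from RefSeq (GRCm38.p6), matched by symbol.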

Additional observations from a re-analysis of the deposited data

Results flagged for a closer look

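Col8a1 was flagged because its depot difference changed with diet by a test of that difference. On SD the viAP minus scAP difference was 0.10 and on HFD 3.03 on the log2 scale, and the interaction was -2.93 (limma adjusted p = 0.00242 with 8 arrays). The level was above 9 on both HFD viAP arrays and between 6.09 and 6.73 on the other 6. Without the array labelled SD viAP replicate 4 the interaction was -3.00 (limma adjusted p = 0.0561). No explanation was tested.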

How the results depend on the processing

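The count of 0 calls on SD with 8 arrays rose to 1 without SD viAP replicate 3 and to 194 without replicate 4, and was 0 under every other setting run. Without SD viAP replicate 3, the 8-array difference changed sign for Tbx15 (0.27) and Wt1 (-0.28), while without replicate 4 it was -4.80 and 2.46. The count of 194 without replicate 4 was 0 with the SD arrays alone, 354 (162 higher, 192 lower) with median centring, 453 (232 and 221) with quantile normalization and 13 (8 and 5) with no moderation. Leaving out 1 further array gave 0 to 2 calls (2 without SD scAP replicate 2, 0 without SD scAP replicate 1 or any HFD array). The filter of the methods gave 290 (118 higher, 172 lower) and a level above 7 on 2 SD arrays 209 (58 and 151), against 105 and 89. An offset of 16 gave 135 and a trended prior 183. With median centring 193 of the 194 remained and with quantile normalization 188. The 145 calls on HFD fell to 0 when any 1 HFD array was left out and rose to 257 (184 higher, 73 lower) with 8 arrays in the fit. The interaction was 0 without SD viAP replicate 4. The median position of SD viAP replicate 3 was 0.648 with genes chosen over 8 arrays and 0.895 after quantile normalization, and that of replicate 4 was 0.192 and 0.066, so their order held. The offset, centring and quantile settings for the position were added after seeing the data. No paired analysis was possible because the groups share no replicate number. The causes were not tested.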
